A study of Mus musculus with 4 samples.

Results

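Collagens are the main structural proteins of the extracellular matrix, and each is a trimer of chains that wind around each other along glycine-rich repeats. The collagen chain genes described here are all the genes with a single symbol in the array's gene table whose symbol has the form Col, a number, a and a number. The rule found 38 genes among the 16675 genes measured in all, carried by 57 probes, and each gene is represented by its probe with the highest mean over the 4 arrays. Another 7 chains of the family (Col6a1, Col6a4, Col6a5, Col6a6, Col21a1, Col26a1 and Col28a1) were not analysed here.

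In Salv CKO hearts Sav1 (Salvador), a Hippo pathway scaffold between the Mst and Lats kinases, was knocked out conditionally, and control hearts are labelled wild-type. Both groups were whole hearts of mouse embryos at embryonic day 9.5 on a C57bl/6 x129 hybrid background, with total RNA pooled over hearts, 2 pools per group. Each pool was amplified, labelled with Cy5 and read on 1 one-colour array. Neither the Cre driver of the knockout, nor any further allele of the controls, nor the number of hearts in a pool is given in the sources used here.

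Fibrillar collagens (types I, II, III, V, XI and others) form the banded fibrils of connective tissue. Type IV forms the sheet of basement membranes, type VI forms beaded filaments, the FACIT collagens decorate fibrils, and types VIII and X form short-chain networks. In the heart tube at this stage a basement membrane underlies the endocardium and surrounds the muscle cells. Between the endocardium and the muscle layer lies a matrix, the cardiac jelly, which swells into the cushions that become valves.

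The median deposited intensity per array was 71.1 and 76.1 in Salv CKO and 77.5 and 101 in the controls, and Pearson's r between arrays across probes lay between 0.938 and 0.949. Heart muscle markers, among them Myh6, Tnnt2 and Actc1, were above the background limit on all 4 arrays for 11 of 11 genes measured. Sav1 itself read 582 and 562 in the Salv CKO pools, against 755 and 630 in the controls, on a probe whose place relative to the deleted part is not known. The difference did not pass the test (-0.27 ± 0.13 on the log2 scale, limma adjusted p = 0.266), so it does not check the labels. Sav1 was lower in Salv CKO under all 16 alternatives tried and passed with the values as deposited (-0.72, limma adjusted p = 0.0199). On that scale the median gene lay at -0.44, so this pass does not check the labels either. Intensities given here are linear and quantile-normalised. A difference is the mean log2 value of the Salv CKO pools less that of the control pools, with limma's standard error (n = 2 pools each). A probe counts as above background at an intensity over 16.

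In Salv CKO hearts Col2a1, the pair Col4a1 and Col4a2, Col6a2 and Col8a1 fell, by 1.85-fold to 3.99-fold, while Col3a1 and Col5a2 rose, by 1.40-fold and 1.56-fold. These were 5 and 2 of the 38 chains at a limma adjusted p under 0.05 (Benjamini-Hochberg over all genes). Over all genes, 5.7% were called lower and 4.92% higher. The share called in either direction was 18.4% of the collagen chains, against 10.6% of all genes. The share of lower calls among the chains (13.2%) was thus above that of all genes, and the share of higher calls (5.26%) was near it. This comparison depends on the processing. With the values as deposited, 8 of the 38 chains and 3101 of the 16675 genes were called lower. With a floor of 16 or without the intensity trend, 0 chains were called lower. No test was made of these shares.

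Among the 29 chains above background on all 4 arrays the median difference was -0.11, next to -0.04 over the 12402 genes so measured. Of these chains 12 lay above 0 and 17 below it. Groups did not overlap for 22 of the 38 chains (57.9%), 11 in each direction. The same held for 54.2% of all genes (25.2% higher and 29% lower), so the chains were close to the background here. By class, the median over measured chains was -0.04 for 10 fibrillar, -0.40 for 4 basement membrane, -0.54 for 2 type VI, -0.23 for 5 FACIT, 0.32 for 2 multiplexin and 0.07 for 4 membrane-spanning chains. The called falls were spread over the fibrillar, basement membrane, type VI and short-chain classes.

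**Figure D1:**
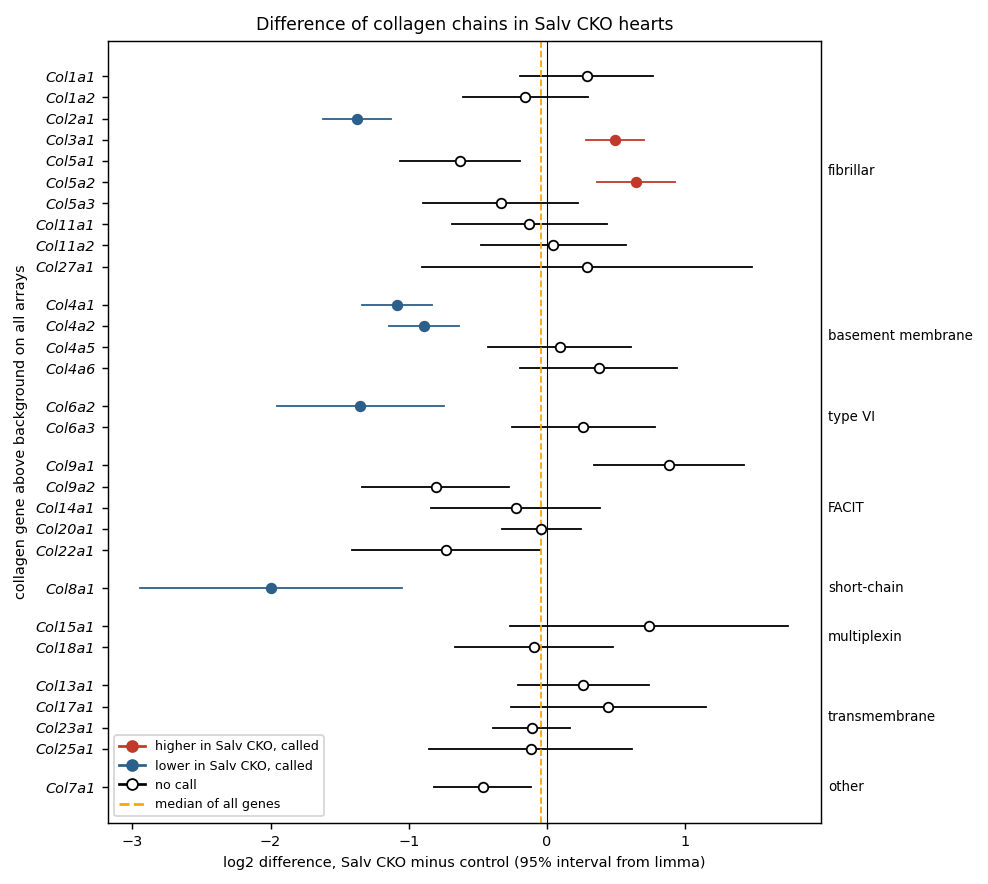
Log2 difference of Salv CKO minus control (horizontal axis) for the 29 collagen chains above background on all 4 arrays, grouped by class, with the 95% interval from limma. Filled points passed the adjusted threshold: Col3a1 and Col5a2 lie right of 0, and Col2a1, Col4a1, Col4a2, Col6a2 and Col8a1 lie left of it; the dashed line is the median of all genes so measured, -0.04.

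An exact permutation test of 2 pools against 2 cannot go below p = 0.333, and the calls therefore use limma's estimate of spread pooled over genes. No chain, and no gene of any kind, passed limma's adjusted threshold when any 1 array was left out (3170 to 3428 of all genes at an unadjusted p under 0.05), or in the fit with a single prior spread for dim and bright genes (3578). In pooled hearts a smaller number of cells of a type and less RNA per cell cannot be told apart.

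Both chains of the common type IV collagen fell. Col4a1 encodes the α1 chain and Col4a2 the α2 chain of the type IV collagen found in nearly all basement membranes, and the genes lie head to head. Col4a1 read 5487 and 6465 in the Salv CKO pools, against 12406 and 12855 in the controls. The higher Salv CKO value was under the lower control value. It fell by 1.08 ± 0.10 on the log2 scale (limma adjusted p = 0.00985), with means of 12.54 ± 0.17 in Salv CKO and 13.62 ± 0.04 in the controls (SD, n = 2). Col4a2 read 18767 and 20429 in the Salv CKO pools, against 33782 and 39008 in the controls, again without overlap. It fell by 0.89 ± 0.10 (limma adjusted p = 0.0124), and no collagen probe was saturated on any array. Both lost their call with floors of 16 (adjusted p = 0.0581 and 0.0710) and 64 and without the intensity trend.

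In the RefSeq table for GRCm38.p6 the starts of Col4a1 and Col4a2 lie on opposite strands and their transcripts overlap by 22 bases. The 250 bases before the start of Col4a1 held 1 CCAAT match and 0 GC boxes (GGGCGG), and those before Col4a2 held 1 CCAAT match and 2 GC boxes, counted on both strands. A GC box occurs in such a window for 35.4% of all genes in that table, and CCAAT for 37.5%. A match is a description of the letters and not of a site in use.

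Endothelial and endocardial markers were lower in the same pools: of 9 measured, 5 fell (Cdh5, Pecam1, Tie1, Eng and Plvap) and 0 rose, with a median difference of -0.74. Their summed intensity was 15042 to 15469 in Salv CKO and 25341 to 26588 in the controls, and none of the 9 was at background. Heart muscle markers had a median difference of -0.60, with 4 of 11 that fell. Probes of 5 of them (Myh6, Actc1, Myl2, Myl3 and Myl4) were saturated on at least 1 array, which bounds the differences they can show. Col2a1, Col6a2 and Col8a1 fell in the same pools. Of all genes 5.7% were called lower. The part of the endothelial and heart muscle markers in the falls of the chains was not tested.

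The other type IV chains did not pass. Col4a5 and Col4a6, the pair of the X chromosome that builds basement membranes of kidney, smooth muscle and other tissues, differed by 0.09 ± 0.20 and 0.37 ± 0.22 (limma adjusted p = 0.821 and 0.363). Col4a5 read 676 and 961 in Salv CKO, against 699 and 821 in the controls, with groups that overlapped. The second Col4a5 probe read 638 and 640 in Salv CKO, against 779 and 729 in the controls, without overlap. It pointed the other way (-0.24 ± 0.10) without a call (adjusted p = 0.213 in the limma fit over single probes). Col4a6 read 113 and 113 in Salv CKO and 83.7 and 91.1 in the controls, and its second probe pointed the other way (-0.88 ± 0.40). The 95% interval of the difference reached from -0.42 to 0.60 for Col4a5 and from -0.19 to 0.94 for Col4a6. Col4a3 and Col4a4, the chains of mature kidney and inner ear membranes, were each above background on 1 of 4 arrays only.

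**Figure D2:**
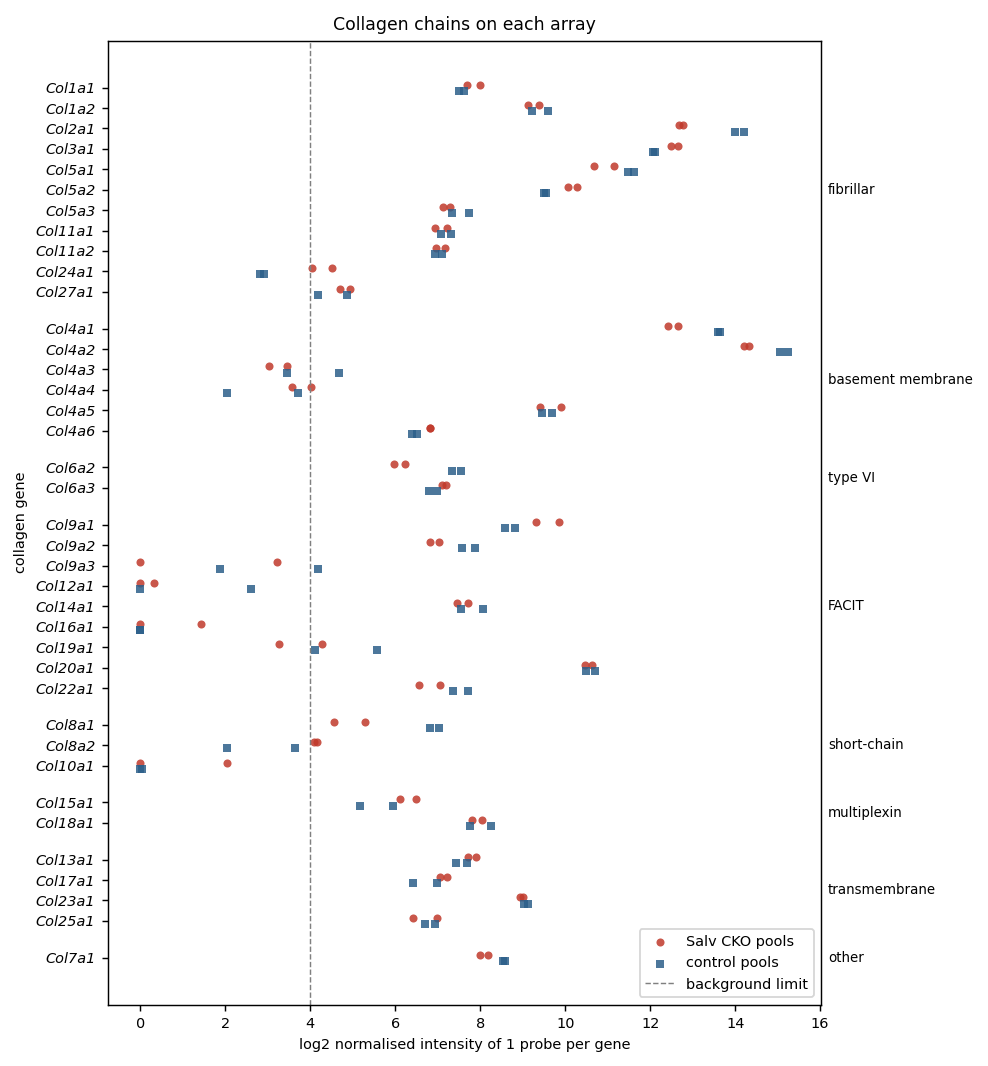
Log2 normalised intensity of 1 probe per gene (horizontal axis) for all 38 collagen chains by class, with 1 point per pool (Salv CKO circles, control squares) and the background limit at log2 4 as a dashed line. The Salv CKO points of Col2a1, Col4a1, Col4a2, Col6a2 and Col8a1 lie left of both control points, and 9 chains have at least 1 point left of the background limit.

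Col2a1, the chain of type II collagen, the fibril of cartilage, notochord and several embryonic epithelia, read 6567 and 7023 in the Salv CKO pools, against 16349.9 and 18949 in the controls. The groups were far apart relative to their spread (12.73 ± 0.07 in Salv CKO and 14.10 ± 0.15 in the controls, SD, n = 2). It was 2.59-fold lower, a difference of -1.37 ± 0.10 (limma adjusted p = 0.00717). A second Col2a1 probe gave nearly the same size of change, -1.28 ± 0.07 (adjusted p = 0.00573 in a limma fit over single probes), with 1682 and 1759.6 in Salv CKO and 4182 and 4163 in the controls. The third Col2a1 probe, at 22.7 and 22.7 in Salv CKO and 36.0 and 32.3 in the controls, gave -0.59 ± 0.40 without a call.

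Col2a1 moved opposite to Sox9, the transcription factor that activates it in cartilage. Sox9 read 4314 and 3733 in Salv CKO, against 2297 and 2432 in the controls, and rose by 0.76 ± 0.10 (limma adjusted p = 0.0167). Of 7 genes on a list of transcription factors of cartilage, tendon, bone and valve, Sox9 was the only one that passed. Sox5, a partner of Sox9 at Col2a1 in cartilage, differed by 0.80 ± 0.17 (limma adjusted p = 0.0541), and Sox6, the other partner, by -0.72 ± 0.52 (adjusted p = 0.457).

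Notochord and floor plate markers, a tissue that uses Col2a1, showed no call in 6 genes, with summed intensities of 2455 to 2619 in Salv CKO and 2491 to 2546 in the controls. Without Nog, the brightest of them, the sums were 1743 to 1922 in Salv CKO and 1484 to 1637 in the controls. Somite and sclerotome markers had 4 of 10 that rose (Tcf15, Meox1, Uncx and Pax3), with summed intensities of 4374 to 4542 in Salv CKO and 1315 to 1343 in the controls, or 1305 to 1543 in Salv CKO and 956 to 982 in the controls without Tcf15, the brightest. Of these 10 markers 4 lay below 0, without a call. Among them Pax9 (-1.02 ± 0.34, limma adjusted p = 0.135) and Foxc2 (-0.36 ± 0.20) were lower in Salv CKO without overlap, and Myf5 was above background on no array. Of all genes 4.92% were called higher. The part of the notochord and somite markers in the difference of Col2a1 was not tested.

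Col3a1 and Col5a2 are neighbours on chromosome 1. Col3a1 encodes the chain of type III collagen, the fibril of soft and vascular connective tissue, and Col5a2 the α2 chain of type V collagen, which sits inside fibrils and limits their width. Col3a1 read 6424 and 5782 in the Salv CKO pools, against 4255 and 4426 in the controls. It rose by 0.49 ± 0.08 (limma adjusted p = 0.0287), without overlap. Col5a2 read 1232 and 1065 in Salv CKO, against 747 and 722 in the controls, and rose by 0.64 ± 0.11 (limma adjusted p = 0.0309).

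Of 12 alternatives that keep all arrays, Col3a1 was called in 5 and Col5a2 in 6. Both lost their call as deposited, with arrays centred on their median, with floors of 16 and 64, with probes averaged and without the intensity trend, and Col3a1 also after division by the 75th percentile. With the values as deposited, where the median gene lay at -0.44, Col3a1 was at -0.04 and Col5a2 at 0.17, both without a call. The other Col5a2 probes gave 0.10 ± 0.33 and 0.16 ± 0.17, and the other Col3a1 probe, near background, gave -1.09 ± 0.62. As the mean of its probes Col3a1 was at -0.30.

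Markers of cushion and general mesenchyme moved up beside this pair: of 10 measured, 3 rose (Pdgfra, Postn and Dcn) and 0 fell, with a median of 0.44 over the 9 above background on all arrays. Their summed intensities overlapped, at 56109 to 60203 in Salv CKO and 49589 to 57730 in the controls, but most of this sum was Vim, a probe saturated on at least 1 array. The other 9 summed to 9011 to 9215 in Salv CKO and 6538 to 6602 in the controls. Of the 10 markers 8 were higher in Salv CKO without overlap, next to 25.2% of all genes, and 1 of these, Lum, was above background on 2 arrays only. Neural crest markers had 4 of 8 that rose, with summed intensities of 55531 to 55569 in Salv CKO and 17686 to 18119 in the controls and Foxd3 at background on every array. Crabp1 gave most of that sum, and the other 7 summed to 8198 to 8236 in Salv CKO and 4423 to 4602 in the controls. Of the remaining lists, markers of neural tube (4 of 11), endoderm and yolk sac (4 of 8) and epicardium (2 of 6) also held genes that rose. On the epicardium list these were Upk3b and Aldh1a2. Its other members were dim: Wt1, Tcf21 and Upk1b were above background on no array, and Tbx18 (-0.80) on 1. Neural tube markers summed to 16030 to 16068 in Salv CKO and 9127 to 10555 in the controls. Endoderm and yolk sac markers summed to 8336 to 8342 in Salv CKO and 3034 to 3459 in the controls. On the neural tube list Zic1 (8.03, with 1 control array under background), Neurog2 (4.40) and Sox2 (3.71) differed by more than any collagen chain. The neural tube list held 1 that fell (Nes, -0.75, limma adjusted p = 0.0191), and red cell markers had 2 of 6 that fell. Of all genes 4.92% were called higher and 5.7% lower. The part of any of these markers in the differences of Col3a1, Col5a2 and the other chains was not tested.

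Col3a1, Col8a1 and Col6a2 are the other chains that passed for which the RefSeq table has an upstream window. Their windows are shown, so that chains that rose and fell can be read side by side, with matches on either strand in capitals to the Tead core (GGAATG, the letters bound by the partners of Yap), CCAAT, the GC box (GGGCGG) and the TATA box (TATAAA), 250 bases before the start, on the gene's own strand of GRCm38.p6.
Col3a1: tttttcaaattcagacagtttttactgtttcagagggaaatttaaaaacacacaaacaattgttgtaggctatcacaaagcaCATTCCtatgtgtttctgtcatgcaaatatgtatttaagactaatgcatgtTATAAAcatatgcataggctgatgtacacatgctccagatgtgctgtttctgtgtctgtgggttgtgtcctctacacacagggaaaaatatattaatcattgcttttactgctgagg
Col8a1: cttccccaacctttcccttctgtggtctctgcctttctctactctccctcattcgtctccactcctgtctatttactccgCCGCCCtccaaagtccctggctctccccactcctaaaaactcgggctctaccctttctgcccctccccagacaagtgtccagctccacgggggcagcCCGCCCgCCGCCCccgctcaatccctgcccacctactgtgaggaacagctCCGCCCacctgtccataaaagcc
Col6a2: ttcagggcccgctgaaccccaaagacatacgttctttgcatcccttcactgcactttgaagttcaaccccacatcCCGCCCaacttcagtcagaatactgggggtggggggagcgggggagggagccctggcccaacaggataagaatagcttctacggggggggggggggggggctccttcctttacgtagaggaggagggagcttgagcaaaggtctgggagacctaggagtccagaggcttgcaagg
The windows are chr1:45311288-45311537 (+) for Col3a1, chr16:57754738-57754987 (-) for Col8a1 and chr10:76623631-76623880 (-) for Col6a2, which has 2 starts in the table, of which the outer is used. Col3a1 held 1 Tead core and 1 TATA box, and Col8a1 and Col6a2 held GC boxes (4 and 1). Whether the matches sort the chains by direction cannot be judged, since of the chains that rose only Col3a1 has a window. The TATA box was found for Col3a1 and not for Col4a1, Col4a2, Col6a2 or Col8a1, which fell. Col4a1 held 0 GC boxes, and Col6a2 had a Tead core at its inner start.

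Such windows were found for 30 of the 38 chains. Taken over all starts of a gene, the Tead core occurred in 4 of the 30 (13.3%; Col3a1, Col6a2 at its inner start, Col18a1 and Col20a1), next to 14.4% of all genes in the table. CCAAT occurred in 40% of the chains and 37.5% of all genes, the GC box in 60% and 35.4%, and the TATA box in 16.7% and 14.3%. These are matches of letters only, and they say nothing of which factor binds there.

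The other fibrillar chains gave no call. Col5a1, the α1 chain and partner of Col5a2 in type V collagen, read 1642 and 2270.3 in Salv CKO, against 2856 and 3123 in the controls. Its groups did not overlap, in the direction opposite to Col5a2, and its difference of -0.63 ± 0.17 missed the threshold (limma adjusted p = 0.0879). It passed in 7 of 16 alternatives, among them centring on array medians (-0.86, limma adjusted p = 0.0295) and the deposited scale (-1.13, limma adjusted p = 0.0134).

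Col1a1 and Col1a2, the chains of type I collagen, the fibril of bone, tendon and skin, differed by 0.29 ± 0.19 and -0.16 ± 0.17 (limma adjusted p = 0.406 and 0.631). Col1a1 read 206 and 256 in Salv CKO, against 197 and 180 in the controls, and Col1a2 read 553 and 664, against 593 and 771. The 95% interval of the difference was -0.19 to 0.77 for Col1a1, which holds a rise of the size seen in Col3a1 (0.49), and -0.61 to 0.29 for Col1a2, which does not.

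Col11a1 and Col11a2, the type XI chains that join type II collagen in cartilage fibrils, overlapped between the groups, at differences of -0.13 ± 0.22 and 0.04 ± 0.20 (limma adjusted p = 0.761 and 0.920). Col11a1 read 121 and 149 in Salv CKO, against 136 and 159 in the controls, and Col11a2 read 125 and 143, against 123 and 137. The 95% interval of their fibril partner Col2a1, -1.62 to -1.13, lay below theirs, -0.69 to 0.43 for Col11a1 and -0.48 to 0.57 for Col11a2.

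Col5a3, the third type V chain, and Col27a1, a chain of cartilage, differed by -0.34 and 0.29 (limma adjusted p = 0.406 and 0.745). Col24a1, a fibrillar chain of developing bone, was not above background on either control array. Col24a1 read 16.4 and 22.7 in Salv CKO and 7.50 and 7.03 in the controls, at least 1.21-fold higher against the background limit, without a call (limma adjusted p = 0.195). Its second probe also lay higher, at 59.8 and 14.7 in Salv CKO and 2.70 and 6.07 in the controls, but was above background on 1 array only.

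Type VI collagen is a beaded filament near cell surfaces, built from an α1, an α2 and a longer chain such as α3. Col6a2, the α2 chain, read 62.4 and 75.3 in the Salv CKO pools, against 162 and 188 in the controls. The groups did not overlap, and it fell by 1.35 ± 0.23 (limma adjusted p = 0.0316), a 2.55-fold lower intensity. Its call was lost in the same alternatives as those of Col4a1 and Col4a2. Col6a3, the α3 chain, did not follow, at 145 and 138 in Salv CKO and 125 and 111 in the controls (0.26 ± 0.20, limma adjusted p = 0.478). The other Col6a3 probes gave -0.39 ± 0.26 and 0.25 ± 0.26, without a call.

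**Figure D3:**
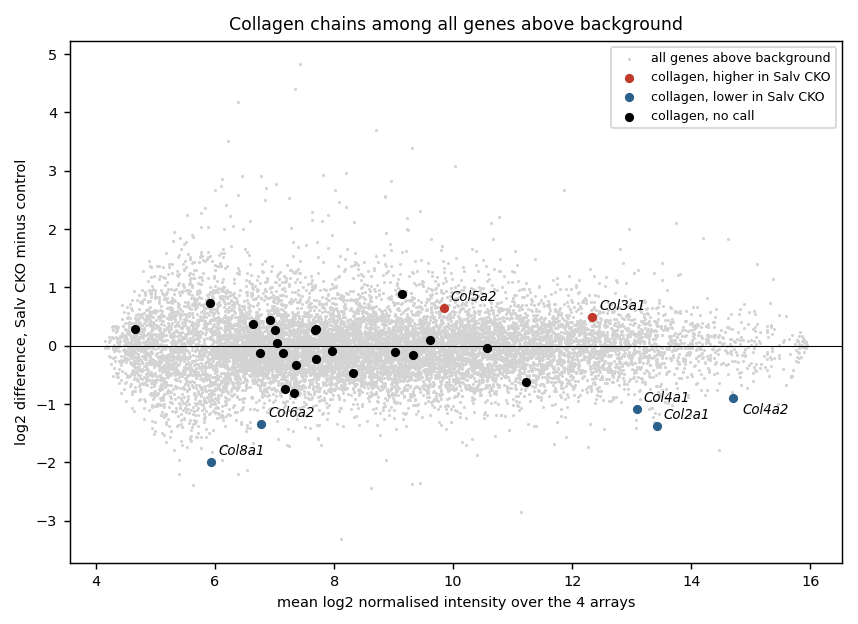
Mean log2 intensity over the 4 arrays (horizontal axis) against the log2 difference of Salv CKO minus control (vertical axis) for the 12402 genes above background on all arrays, in grey, with the 29 collagen chains so measured in colour or black. Col2a1, Col4a1 and Col4a2 are bright probes at the lower edge of the grey cloud, while Col8a1 and Col6a2 are dim probes with larger errors.

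Short-chain collagens form hexagonal networks under endothelium and in vessel walls. Col8a1, the α1 chain of type VIII, read 23.6 and 39.4 in the Salv CKO pools, against 131 and 113 in the controls, and was 3.99-fold lower. This was the lowest difference of any chain, -2.00 ± 0.37 (limma adjusted p = 0.0364), and both Salv CKO values were near the background limit of 16. The second Col8a1 probe read 17.9 and 42.3 in Salv CKO and 43.0 and 31.6 in the controls, with groups that overlapped (-0.42 ± 0.56). As the mean of both probes Col8a1 was at -1.21 without a call (adjusted p = 0.203), and its call was also lost with floors of 16 and 64 and without the intensity trend.

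Col8a2, the α2 chain of type VIII, was not above background on either control array. It read 17.9 and 17.1 in Salv CKO and 4.13 and 12.6 in the controls, at least 1.09-fold higher against the background limit, without a call (limma adjusted p = 0.362). The other Col8a2 probe was above background on no array and pointed the other way. It read 4.13 and 9.31 in Salv CKO and 10.2 and 14.0 in the controls (-0.94 ± 0.74). Col10a1, the type X chain of hypertrophic cartilage, was above background on no array.

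FACIT collagens bind the surface of fibrils, and none of 9 passed limma's adjusted threshold. Type IX collagen, a trimer of Col9a1, Col9a2 and Col9a3 on cartilage fibrils, had chains on both sides. Col9a1 read 919 and 639.5 in Salv CKO, against 453 and 381 in the controls, without overlap (0.88 ± 0.21, limma adjusted p = 0.0658). Its second probe read 252 and 341 in Salv CKO, against 141 and 136 in the controls, and passed in the fit over single probes (1.08 ± 0.20, limma adjusted p = 0.0405).

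Col9a2 lay on the opposite side, at 113 and 130.1 in Salv CKO and 235 and 191 in the controls (-0.81 ± 0.21, limma adjusted p = 0.0779). Col9a1 and Col9a2 both passed when only genes above background on all 4 arrays were tested (limma adjusted p = 0.0225 and 0.0347). Col9a3 was above background on 1 of 4 arrays.

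Col20a1, a FACIT chain known mainly from embryonic epithelia in chick, overlapped between the groups, at 1587 and 1420.3 in Salv CKO and 1444 and 1653 in the controls (-0.04 ± 0.11, interval -0.33 to 0.24). Col14a1 and Col22a1, FACIT chains of tendon and of muscle-tendon junctions, differed by -0.23 ± 0.24 and -0.73 ± 0.26 without a call. Col12a1 and Col16a1 were above background on no array, and Col19a1 on 3.

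Chains outside these classes stayed without a call. Col18a1, the type XVIII chain of vascular basement membranes that releases endostatin, read 262 and 223 in Salv CKO and 306 and 218 in the controls (-0.10 ± 0.22), next to the falls of Col4a1 and Col4a2. Col15a1, its relative in muscle and vessel basement membranes, read 89.2 and 68.7 in Salv CKO and 61.5 and 35.7 in the controls (0.74 ± 0.39, limma adjusted p = 0.313). Col23a1, a membrane-spanning chain, read 511 and 486 in Salv CKO and 556 and 522 in the controls (-0.11 ± 0.11). The other membrane-spanning chains, Col13a1, Col17a1 and Col25a1, differed by 0.26, 0.44 and -0.12. Col7a1, the anchoring fibril under epithelia, read 257 and 290 in Salv CKO and 371 and 382 in the controls, without overlap (-0.47 ± 0.14, limma adjusted p = 0.105).

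**Figure D4:**
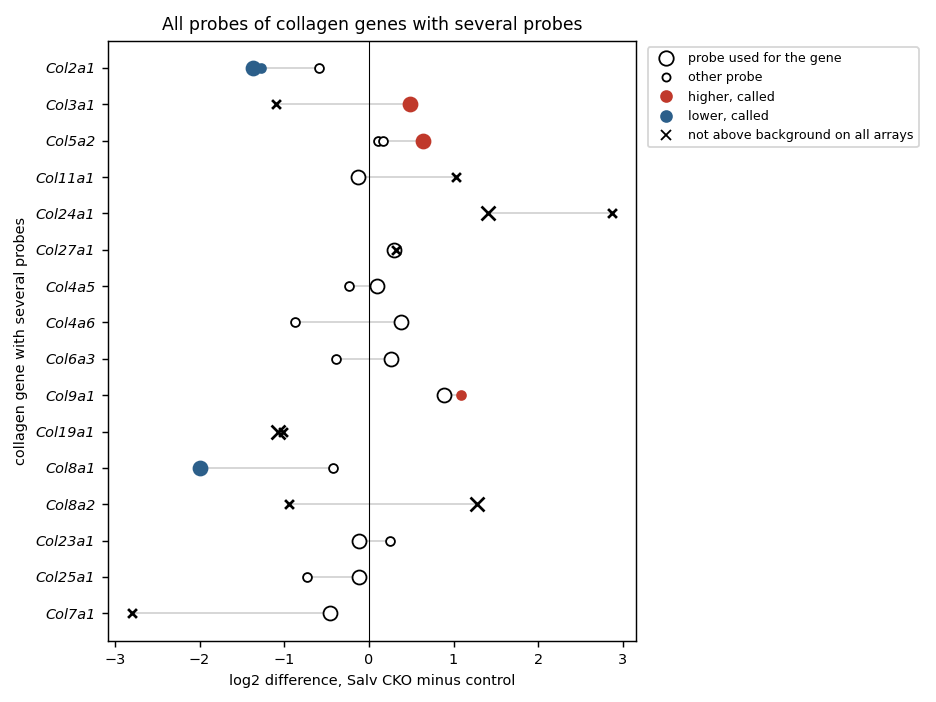
Log2 difference of Salv CKO minus control (horizontal axis) of every probe for the 16 collagen genes with several probes, with large symbols for the probe used, filled colours for calls in the fit over single probes, and crosses for probes not above background on all arrays. Probes of Col2a1 and Col9a1 lie on the same side, while those of Col4a6, Col6a3 and Col23a1 lie on both sides of 0.

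Of the 16 chains with several probes, 9 had at least 2 above background on all arrays, and the signs of those probes were alike for 5 (Col2a1, Col5a2, Col8a1, Col9a1 and Col25a1) and opposite for 4 (Col4a5, Col4a6, Col6a3 and Col23a1). Col4a1, Col4a2 and Col6a2 had 1 probe each, so their falls have no second probe.

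Genes that modify, export and crosslink collagens were called in one direction only, lower. Of 32 genes of collagen assembly, 4 fell and 0 rose, that is 12.5% lower, against 5.7% of all genes. The median of the 28 above background on all arrays was -0.21, with 22 of them below 0. Over all 12402 genes so measured the median was -0.04, with 6678 below 0. Loxl1, a lysyl oxidase that crosslinks collagen and elastin, read 3025 and 3323 in Salv CKO, against 4985 and 4993 in the controls, and fell by 0.65 ± 0.08 (limma adjusted p = 0.0144). Its relative Loxl2, which crosslinks type IV collagen, fell by 0.32 ± 0.07 (adjusted p = 0.0456). Leprel1, a prolyl 3-hydroxylase active on basement membrane collagen, fell by 0.55 ± 0.09 (adjusted p = 0.0284), and Plod3, a lysyl hydroxylase that also adds sugars to collagen, fell by 0.44 ± 0.07 (adjusted p = 0.0275). The collagen chaperone Serpinh1 (Hsp47) was at -0.07 ± 0.09 (adjusted p = 0.699). With the values as deposited 16 of the 41 assembly and receptor genes were called, against 7 here. With a floor of 16 there was 1 call, and without the intensity trend there were 0.

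Of 9 collagen receptor genes, 2 fell and 1 rose, that is 22.2% lower and 11.1% higher, against 5.7% and 4.92% of all genes. The list is too short to read these shares as a result, and Itga10 and Lair1 were above background on no array. Ddr1, a receptor tyrosine kinase of epithelia that binds fibrillar and type IV collagens, read 2024 and 2357 in the Salv CKO pools, against 5524 and 5275 in the controls. It fell by 1.31 ± 0.10 (limma adjusted p = 0.00762), without overlap. Itgb1, the β1 subunit common to the collagen-binding integrins, fell by 0.43 ± 0.07 (adjusted p = 0.0302). Itga11, an α subunit of mesenchymal cells that binds fibrillar collagen, read 364 and 319 in Salv CKO, against 198 and 189.9 in the controls. It rose by 0.81 ± 0.15 (limma adjusted p = 0.0373), next to the rises of Col3a1 and Col5a2. Like Col5a2, Itga11 lost its call as deposited, with arrays centred on their median, with floors of 16 and 64, with probes averaged and without the intensity trend.

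**Figure D5:**
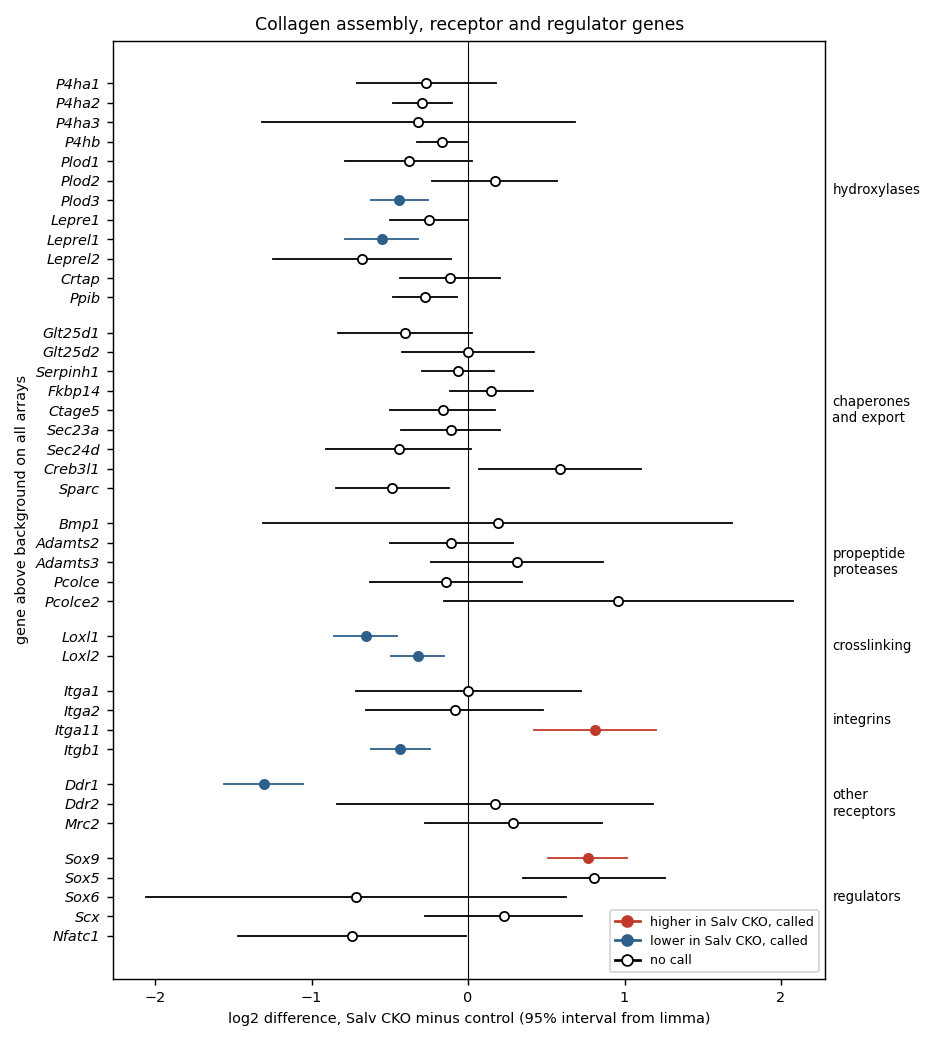
Log2 difference of Salv CKO minus control (horizontal axis) with the 95% interval from limma for genes of collagen assembly, collagen receptors and regulators that were above background on all 4 arrays. Plod3, Leprel1, Loxl1, Loxl2, Itgb1 and Ddr1 lie left of 0 as called falls, and Itga11 and Sox9 lie right of it as called rises.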

How the data were processed

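Sample titles put 4 one-colour Cy5 arrays of 29922 probes into 2 Salv CKO and 2 control pools. The authors deposited linear probe intensities, of which 3.37 to 5.99% per array lie below 0, as after background subtraction. Neither scanner nor software nor any scaling is given in the sources used here. Quantile normalisation with limma 3.58.1 (R 4.3.3) was followed by a floor of 1 and the log2. The background limit of 16 is about 3 times the noise SD of 4.36 to 6.28. Precision is limited by the number of arrays.

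The platform's gene table named 21020 probes with 1 symbol and left 8902 unnamed; all 38 chain symbols are official in RefSeq's GRCm38.p6 table. The test was limma (lmFit and eBayes with a trend on intensity, two-sided, 2.92 prior degrees of freedom) over 16675 genes, and the procedure was tested on simulated data.

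The members, lists and tests were chosen with earlier results of these data known. Values per array are given for called chains, non-overlapping chains differing by at least 1 (log2), the brightest chain per class and trimer or head-to-head partners; Col15a1 and Col7a1 were added after their values were seen. Of assembly, receptor and regulator genes, those past the threshold are named; the rest named in passing were chosen after their values were seen. Alternatives varied the scaling, the floor, the filter on dim probes, the probe per gene, the variance model, the replicate block and the arrays used. The series text calls the pools biological replicates.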

Additional observations from a re-analysis of the deposited data

How the results depend on the processing

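Falls of Col2a1, Col4a1, Col4a2, Col6a2 and Col8a1 kept their direction under all 16 alternatives, and of the 12 that keep all arrays Col2a1 kept its call under 10, Col4a1, Col4a2 and Col6a2 under 9 each and Col8a1 under 8. Chains called higher and lower numbered 2 and 5. They were 0 and 8 with the values as deposited, 0 and 6 with arrays centred on their median, 1 and 6 divided by the 75th percentile, 0 and 0 with a floor of 16, 0 and 1 with a floor of 64, 1 and 4 with probes averaged, and 0 and 0 without the intensity trend. The floors set dim genes to equal values. At an unadjusted limma p under 0.05 the chains numbered 4 and 7 with either floor and 5 and 7 without the trend. With 1 array left out the counts were 0 to 0 in each direction (2 to 4 and 5 to 8 unadjusted), where the lone array is assumed to vary like the other group. The median over measured chains (-0.11) was -0.48 as deposited, -0.21 centred, and -0.16 to 0.026 with 1 array left out.

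Calls among assembly and receptor genes (7) became 16 as deposited, 1 and 2 with floors of 16 and 64, 3 with probes averaged, 0 without the trend (10 unadjusted) and 0 to 0 with 1 array left out (10 to 11 unadjusted). Over all genes (1772) they became 3330, 481, 491, 1224 and 0 in the same order, 2676 with only genes above background on all arrays, and 0 to 0 with 1 array left out. Of all calls, 46.3% were higher, against 6.88% as deposited and 22.3% centred, where the median gene was at -0.44 and -0.17.

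Signs turned as deposited for Col1a1 (-0.078), Col3a1 (-0.035), Col11a2 (-0.29), Col4a5 (-0.37) and Col6a3 (-0.068), centred for Col11a2 (-0.018) and Col4a5 (-0.10), and with probes averaged for Col3a1 (-0.30), Col11a1 (0.45), Col4a5 (-0.074), Col4a6 (-0.25) and Col23a1 (0.071). With 1 array left out Col11a1 ranged from -0.28 to 0.019, Col11a2 from -0.052 to 0.14, Col4a5 from -0.16 to 0.34, Col20a1 from -0.14 to 0.057, Col18a1 from -0.34 to 0.15 and Col1a2 from -0.35 to 0.032. The cause was not tested.

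The replicate number as a block gave 3 and 6 chains and 2211 genes. Same-numbered arrays deviated from their group means with a correlation of 0.17 over 2 pairs, too few to tell whether the numbers pair the pools. The block added calls for Col5a1 (limma adjusted p = 0.0351) and Col9a1 (0.0220). Dim chains, at under 16 on some arrays, limit what these arrays can show.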
